A study of Mus musculus with 4 samples.

Results

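Granzymes and the natural killer (NK) cell genes measured with them were followed on arrays of mouse lung: Gzma, Gzmb and Gzmk (granzymes), Prf1 (perforin), Nkg7, Ncr1, Klre1, Klrb1c, Xcl1 and Ccl5. The 10 genes were chosen by symbol, as every array probe that carries one of these names, out of 27176 genes named on the array. The list was drawn up with earlier results of these data known. Its counts beside the shares of all genes are therefore description and not tests. They had 15 probes: 1 each for 7 genes, 2 for Gzmk, and 3 each for Klrb1c and Klre1. Lungs came from C57BL/6J mice and were hybridised to 1-colour Agilent 8x60K arrays, with 1 array per group and the RNA of 5 mice pooled on each. The ORX/PPE group had ORX surgery, read as orchiectomy because the study's title names testosterone deficiency, and PPE, read as porcine pancreatic elastase because the title names elastase-induced emphysema. The ORX/PBS group had ORX surgery and PBS, the sham/PPE group sham surgery and PPE, and the sham/PBS group sham surgery and PBS. All 4 groups are labelled with 3 weeks. No other allele or agent is named in the labels, and age is not given there. Pooling leaves 1 value per group, so the spread between mice was not measured and single comparisons have no test.

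NK cells and cytotoxic T cells kill target cells by releasing granules. Perforin opens the target's membrane and granzymes, a family of serine proteases, enter and cut proteins inside. Nkg7 is a protein of the granule membrane. Ncr1 (NKp46) is an activating receptor that marks NK cells, Klrb1c (NK1.1) is the classical NK marker of C57BL/6 mice, and Klre1 is a lectin-like receptor of the same gene cluster. Ccl5 and Xcl1 are chemokines that these lymphocytes secrete. Ccl5 attracts T cells and monocytes, and Xcl1 attracts cross-presenting dendritic cells through the receptor Xcr1. Most of these genes are also expressed by effector CD8 T cells, and in whole lung a smaller number of such cells and less RNA per cell cannot be told apart.

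The promoters of 9 of the 10 genes were found in the RefSeq promoter table (GRCm38.p6), and 4 are shown because 3 of these genes were lowest on the sham/PBS array and Gzmk had another pattern. Each sequence gives the 250 bases before the annotated start, 5′ to 3′ on the gene's strand. Capitals mark matches, on either strand, to the letters of the RUNX core TGTGGT, the T-box core AGGTGT, the ETS core GGAAGT and the AP-1 motif TGANTCA. T-box, RUNX and ETS proteins are transcription factor families with known roles in NK and CD8 T cells.
Gzma promoter, chr13:113100982-113101231, minus strand, GRCm38.p6: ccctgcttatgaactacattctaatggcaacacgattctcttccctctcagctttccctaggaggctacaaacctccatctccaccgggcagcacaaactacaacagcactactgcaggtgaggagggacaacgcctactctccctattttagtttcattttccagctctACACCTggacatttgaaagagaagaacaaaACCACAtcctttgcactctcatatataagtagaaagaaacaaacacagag
Gzmb promoter, chr14:56262335-56262584, minus strand, GRCm38.p6: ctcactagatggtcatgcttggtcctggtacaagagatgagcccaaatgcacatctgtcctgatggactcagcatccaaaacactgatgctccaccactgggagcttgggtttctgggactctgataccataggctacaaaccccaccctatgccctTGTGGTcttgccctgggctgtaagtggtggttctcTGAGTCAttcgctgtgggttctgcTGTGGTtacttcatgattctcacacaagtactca
Prf1 promoter, chr10:61297586-61297835, plus strand, GRCm38.p6: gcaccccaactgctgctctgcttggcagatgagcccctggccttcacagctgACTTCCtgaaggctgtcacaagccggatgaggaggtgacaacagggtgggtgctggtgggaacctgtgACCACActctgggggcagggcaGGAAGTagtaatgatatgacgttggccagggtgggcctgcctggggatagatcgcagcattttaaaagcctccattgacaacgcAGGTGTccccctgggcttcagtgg
Gzmk promoter, chr13:113180966-113181215, minus strand, GRCm38.p6: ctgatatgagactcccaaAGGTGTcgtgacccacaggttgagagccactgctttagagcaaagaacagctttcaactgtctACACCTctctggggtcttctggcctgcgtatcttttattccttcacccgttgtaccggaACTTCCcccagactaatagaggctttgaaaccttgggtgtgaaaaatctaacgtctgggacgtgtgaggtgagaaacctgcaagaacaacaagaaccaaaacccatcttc

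The RUNX letters occurred in 8 of the 9 promoters, against 14.2% of the 27025 promoters of this length in the table. Gzmk was the 1 promoter without them. The T-box letters occurred in 4 (Gzma, Gzmk, Prf1 and Nkg7), against 12% of all promoters. The ETS letters occurred in 4 (Gzmk, Prf1, Xcl1 and Klrb1c), against 20.0%. The AP-1 letters occurred only in Gzmb (6.87% of all promoters) and the STAT motif TTCNNNGAA only in Nkg7 (7.18%), while no member had a TATAAA (13%). These are matches of letters in a window, none was tested as a binding site, and no motif searched overlapped another in the 4 printed promoters.

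Probes of 60 bases measured the genes, and 5 of the 15 are shown because a result below turns on them: the dimmer Gzmk probe, both measured Klre1 probes, the dimmest Klrb1c probe and the Xcl1 probe. The coordinates are those of the array design (mm9), which carried no exon or UTR annotation here.
Gzmk probe A_51_P166556, chr13:113962100-113962159, minus strand, mm9: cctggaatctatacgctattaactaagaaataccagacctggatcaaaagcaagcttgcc
Klre1 probe A_55_P2071716, chr6:129534195-129534254, plus strand, mm9: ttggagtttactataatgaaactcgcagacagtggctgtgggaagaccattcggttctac
Klre1 probe A_52_P592222, chr6:129530081-129532024, plus strand, mm9: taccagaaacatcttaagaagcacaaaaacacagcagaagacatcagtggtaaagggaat
Klrb1c probe A_52_P599514, chr6:128734770-128734829, minus strand, mm9: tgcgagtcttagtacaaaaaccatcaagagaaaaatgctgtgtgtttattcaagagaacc
Xcl1 probe A_51_P234956, chr1:166862020-166862079, minus strand, mm9: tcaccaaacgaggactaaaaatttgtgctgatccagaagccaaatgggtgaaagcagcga
The second Klre1 probe covers 1944 genomic bases with its 60 bases, so it is not contiguous in the genome. The 2 Gzmk probes lie 224 bases apart. Of the 15 probes, 13 were well above background on all 4 arrays, 1 (the dimmer Gzmk probe) on 1 array and 1 (Klre1 A_51_P383544) on 0 arrays. Where a gene had several probes, the brightest probe not saturated stands for the gene and the others are given beside it.

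The number of genes above background was 20117 on the ORX/PPE array, 20895 on ORX/PBS, 20237 on sham/PPE and 20235 on sham/PBS, and the 75th percentile of the processed signal lay between 592 and 715. All 4 arrays were on 1 slide and were scanned on 1 day. Lung epithelial markers were above background on every array (8 of 8). The sham/PPE array stood apart in transcripts of other organs: the summed signal of 8 cardiac muscle genes was 2.33 times that of sham/PBS, that of 4 fat genes 4.07 times and that of 4 spermatid genes 21.6 times, against 0.400, 0.727 and 0.993 times on ORX/PPE and 0.820, 1.13 and 0.979 times on ORX/PBS. The comparisons of ORX/PPE with ORX/PBS and of ORX/PBS with sham/PBS do not use that array. Cardiac genes also differed between ORX/PPE and ORX/PBS: 8 of 8 were lower on ORX/PPE, with a median log2 difference of -0.99. Of all genes, 46.4% were above 0 in that comparison.

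Levels below are the processed signal as a percent of the array's 75th percentile, and differences are in log2 of that scaled signal. The ± after a difference is the error that the scanner software assigns to the spots, which covers the array measurement and not the mice (1 array a group). Levels of single genes are compared between arrays for 1 probe at a time and not between probes. Sums over a list add the signals of different probes, so bright probes weigh more in them.

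On ORX/PBS, 8 of the 10 genes were at their highest of the 4 arrays, where 21.5% of the 19306 genes above background on all arrays were highest, and the other 2, Klre1 and Prf1, were highest on sham/PPE (28.6% of all genes). On sham/PBS, 7 were at their lowest, where 33.9% of all genes were lowest, while Klre1 and Xcl1 were lowest on ORX/PPE (27.9%) and Gzmk on sham/PPE (17.6%). By the probe that stands for each gene, ORX/PBS was above sham/PBS for 10 of 10 genes, where 52.3% of all genes were. ORX/PPE was below ORX/PBS for 10 of 10, where 46.4% of all genes were above 0. Differences within the spot error are among these, as for Klre1 and Xcl1 in the first and Klrb1c, Gzmk and Prf1 in the second. The dimmest Klrb1c probe was at -0.15 for ORX/PBS against sham/PBS. By the processed signal, Gzmk differed mainly by surgery, and Xcl1 was lower on both PPE arrays. The probes of both genes were dim, and normexp background correction, which can narrow differences of dim probes, left neither pattern clear. Gzmk was then at 0.16 under PPE and 0.30 under PBS for surgery. For PPE it was at 0.11 in ORX mice and 0.25 in sham mice. Xcl1 was at -0.19 in ORX mice and -0.04 in sham mice for PPE.

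**Figure D1:**
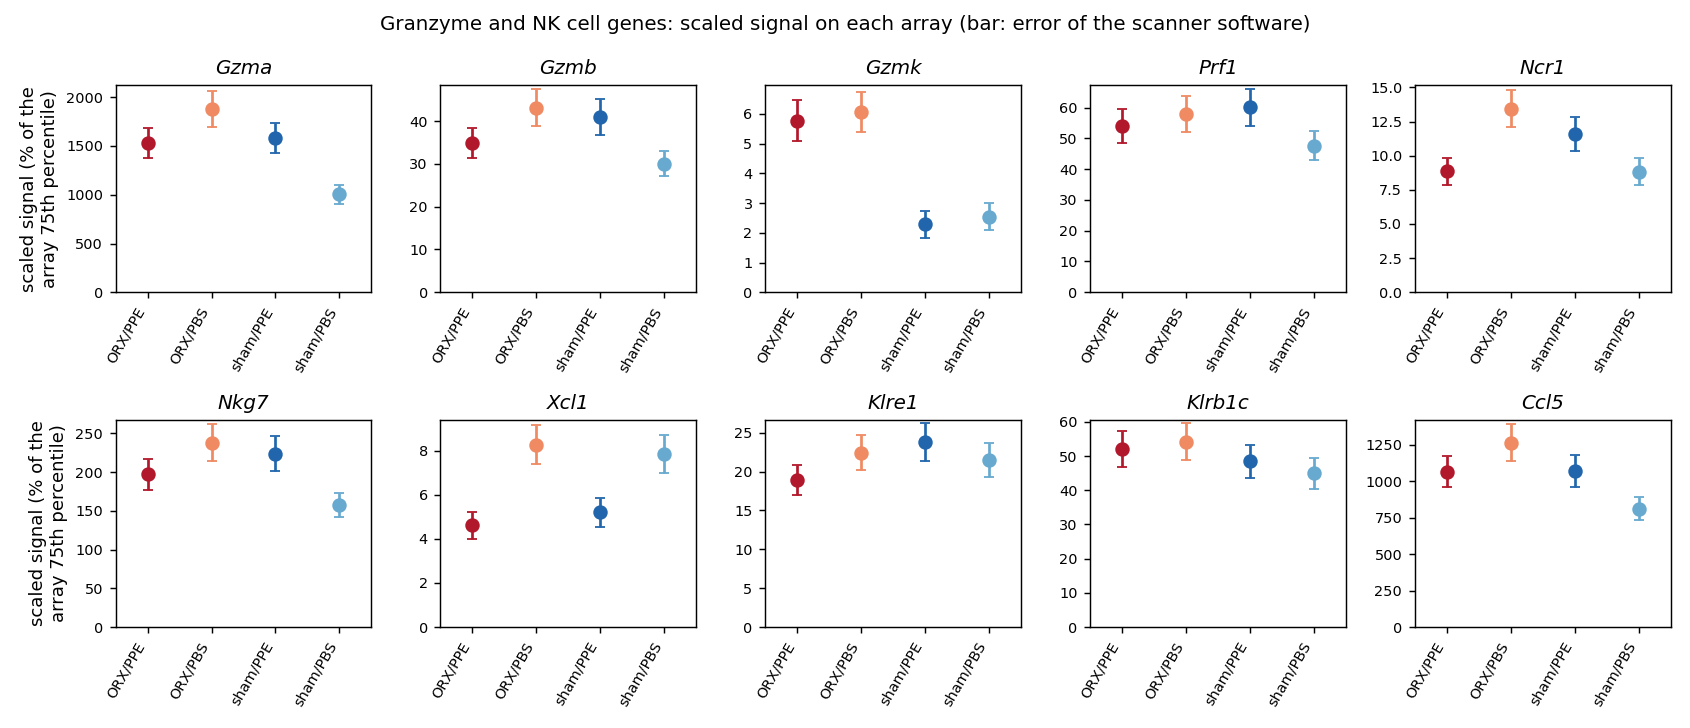
Scaled signal (percent of the array's 75th percentile, linear axis from 0) of the probe that stands for each of the 10 genes on the 4 arrays, ORX/PPE, ORX/PBS, sham/PPE and sham/PBS from left to right. Each point is 1 array of pooled RNA and the bar is the scanner software's error. Gzma was at 1879.5 on ORX/PBS against 1003 on sham/PBS, and Gzmk lay at 5.77 and 6.06 on the ORX arrays against 2.28 and 2.55 on the sham arrays.

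Gzma, granzyme A, the tryptase of the family, had a scaled signal of 1529.7 on ORX/PPE, 1879.5 on ORX/PBS, 1581 on sham/PPE and 1003 on sham/PBS. The sham/PBS array was the low one and the other 3 lay above it. Gzma was 1.87-fold higher on ORX/PBS than on sham/PBS (log2 difference 0.91 ± 0.20) and 1.58-fold higher on sham/PPE than on sham/PBS (0.66 ± 0.20). Between the ORX/PPE and ORX/PBS arrays it differed by -0.30 ± 0.20, and between ORX/PPE and sham/PPE by -0.05 ± 0.20, a value within the error of the spots.

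Gzmb, granzyme B, which cleaves after aspartate and activates caspases, had 34.9 on ORX/PPE, 43.1 on ORX/PBS, 40.9 on sham/PPE and 30.1 on sham/PBS. Its order over the arrays was that of Gzma except that ORX/PPE and sham/PPE lay further apart. The difference was 0.52 ± 0.20 for ORX/PBS against sham/PBS and 0.44 ± 0.21 for sham/PPE against sham/PBS. It was -0.31 ± 0.20 for ORX/PPE against ORX/PBS and -0.23 ± 0.21 for ORX/PPE against sham/PPE.

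Gzmk, granzyme K, another tryptase, which lies near Gzma on chromosome 13, was high on both ORX arrays and low on both sham arrays. Its brighter probe had 5.77 on ORX/PPE, 6.06 on ORX/PBS, 2.28 on sham/PPE and 2.55 on sham/PBS. The difference was 1.34 ± 0.33 for ORX/PPE against sham/PPE (2.53-fold) and 1.25 ± 0.30 for ORX/PBS against sham/PBS (2.38-fold). PPE against PBS gave -0.07 ± 0.23 in ORX mice and -0.16 ± 0.38 in sham mice, both within the spot error. The probe was dim: its processed signal, before scaling, was 35.9 and 43.3 on the ORX arrays (PPE, PBS) against 13.5 and 15.7 on the sham arrays, and the lowest signal called above background was 9.52 to 10.8. With normexp background correction and an offset of 50, which can narrow differences of dim probes, the ORX differences were 0.16 under PPE and 0.30 under PBS. The PPE differences were then 0.11 in ORX mice and 0.25 in sham mice, with the sign reversed. The dimmer Gzmk probe had processed signals of 12.6 on ORX/PPE, 6.68 on ORX/PBS, 4.06 on sham/PPE and 2.41 on sham/PBS, and only the ORX/PPE spot was above background. For that probe the lowest signal above background was taken as the floor of the dim array. Gzmk was then at least 1.53-fold higher on ORX/PPE than on ORX/PBS (0.61 ± 0.58). Against sham/PPE it was at least 1.11-fold higher on ORX/PPE (0.16 ± 0.94). The first bound is about as large as the spot error and the second lies within it. The other pairs give no fold.

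Prf1, perforin, had 54.0 on ORX/PPE, 57.9 on ORX/PBS, 60.1 on sham/PPE and 47.6 on sham/PBS. Its range was narrow, with sham/PBS again lowest. The differences were 0.34 ± 0.20 for sham/PPE against sham/PBS and 0.28 ± 0.20 for ORX/PBS against sham/PBS. ORX/PPE differed by -0.10 ± 0.20 from ORX/PBS and by -0.16 ± 0.20 from sham/PPE.

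Nkg7, the granule membrane protein, had 197 on ORX/PPE, 238 on ORX/PBS, 224 on sham/PPE and 158 on sham/PBS. As for Gzma and Gzmb, ORX/PBS was highest and sham/PBS lowest. The difference was 0.59 ± 0.20 for ORX/PBS against sham/PBS and 0.50 ± 0.20 for sham/PPE against sham/PBS, and it was -0.27 ± 0.20 for ORX/PPE against ORX/PBS and -0.18 ± 0.20 for ORX/PPE against sham/PPE.

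Ncr1, the receptor most particular to NK cells among the 10 by background knowledge, had 8.85 on ORX/PPE, 13.4 on ORX/PBS, 11.6 on sham/PPE and 8.83 on sham/PBS. ORX/PPE and sham/PBS were level and the other pair lay above them. The difference was -0.60 ± 0.22 for ORX/PPE against ORX/PBS and 0.40 ± 0.22 for sham/PPE against sham/PBS. Between surgeries it was -0.39 ± 0.22 under PPE and 0.61 ± 0.22 under PBS. Normexp correction brought the first of these to -0.25 and the last to 0.25.

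Klrb1c had 3 probes above background on all arrays, and they did not give 1 pattern. The brightest, A_51_P476687, had 52.0 on ORX/PPE, 54.3 on ORX/PBS, 48.4 on sham/PPE and 44.9 on sham/PBS, a difference of 0.27 ± 0.20 for ORX/PBS against sham/PBS. Probe A_55_P1979147 had 34.5, 44.3, 36.5 and 21.6 on the arrays in that order. By it, Klrb1c was 2.05-fold higher on ORX/PBS than on sham/PBS (1.03 ± 0.21) and 1.69-fold higher on sham/PPE than on sham/PBS (0.75 ± 0.21). Probe A_52_P599514, the dimmest, had 6.37 on ORX/PPE, 6.49 on ORX/PBS, 7.62 on sham/PPE and 7.20 on sham/PBS, and none of its 4 differences was larger than 0.26 in size. Klrb1c has close relatives in its gene cluster, and which transcripts each probe measured was not tested.

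Klre1 showed the same kind of disagreement. The brightest probe had 18.9 on ORX/PPE, 22.4 on ORX/PBS, 23.8 on sham/PPE and 21.5 on sham/PBS, with ORX/PPE lowest. Its difference for ORX/PBS against sham/PBS was 0.06 ± 0.21, and for ORX/PPE against sham/PPE it was -0.33 ± 0.21. The probe A_52_P592222, not contiguous in the genome, had 11.4 on ORX/PPE, 15.4 on ORX/PBS, 11.97 on sham/PPE and 8.96 on sham/PBS, which is the order of Gzma. By this probe the ORX/PBS array was 1.72-fold above the sham/PBS array (0.78 ± 0.21), and ORX/PPE differed from ORX/PBS by -0.43 ± 0.21.

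**Figure D2:**
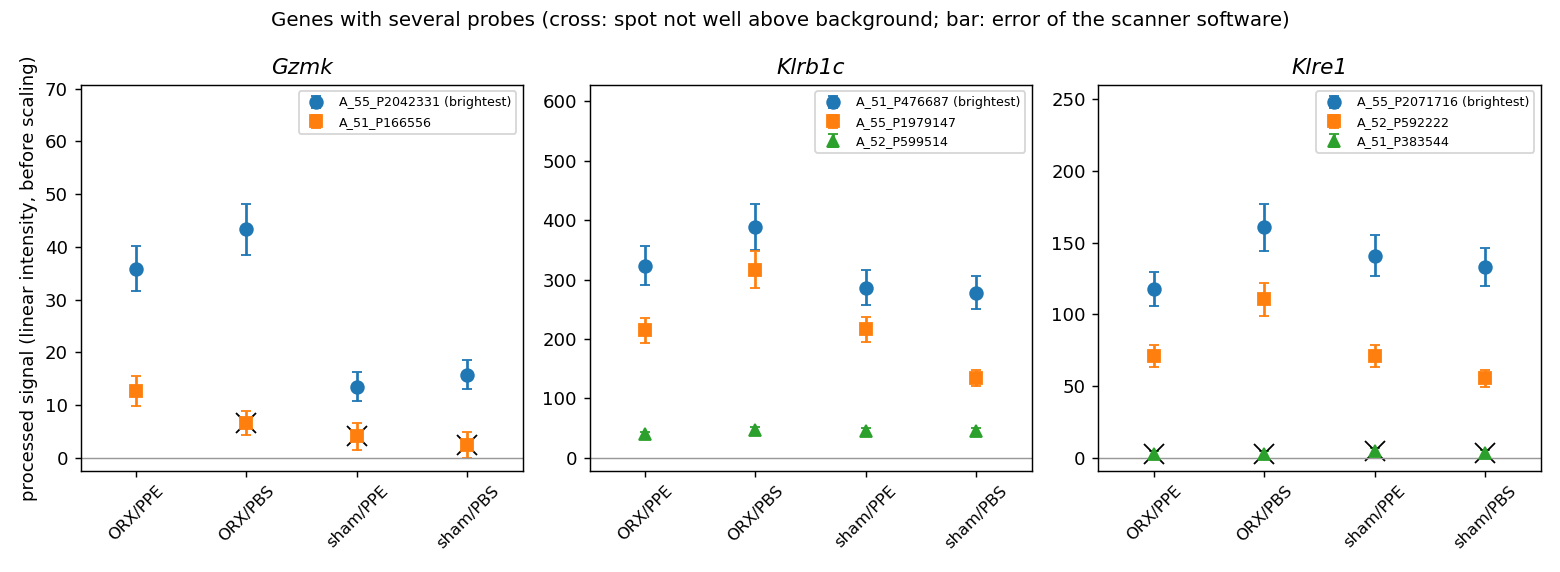
Processed signal before scaling (linear intensity, linear axis) of every probe of Gzmk, Klrb1c and Klre1 on the arrays ORX/PPE, ORX/PBS, sham/PPE and sham/PBS, with the scanner software's error as a bar and a cross on spots not well above background. The second Klrb1c probe was at 317 on ORX/PBS against 134 on sham/PBS, while the brightest was at 388 on ORX/PBS against 278 on sham/PBS. Heights of different probes are not comparable.

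Ccl5 had 1065 on ORX/PPE, 1263 on ORX/PBS, 1070.2 on sham/PPE and 812 on sham/PBS. The 2 PPE arrays were level (-0.01 ± 0.20 for ORX/PPE against sham/PPE), with ORX/PBS above and sham/PBS below them. The difference was 0.64 ± 0.20 for ORX/PBS against sham/PBS, 0.40 ± 0.20 for sham/PPE against sham/PBS and -0.25 ± 0.20 for ORX/PPE against ORX/PBS.

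Xcl1 was the member that was lower on both PPE arrays: 4.63 on ORX/PPE and 5.21 on sham/PPE, against 8.27 on ORX/PBS and 7.86 on sham/PBS. The difference was -0.84 ± 0.24 for ORX/PPE against ORX/PBS and -0.59 ± 0.25 for sham/PPE against sham/PBS. Between surgeries it was -0.17 ± 0.27 under PPE and 0.07 ± 0.22 under PBS, within the spot error. Its processed signals were low, 28.8 and 30.8 on the PPE arrays (ORX, sham) against 59.2 and 48.6 on the PBS arrays. With normexp correction the PPE differences were -0.19 in ORX mice and -0.04 in sham mice.

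The first comparison asks what PPE did in ORX mice (ORX/PPE against ORX/PBS). All 10 genes were lower on ORX/PPE by their representing probes, with a median log2 difference of -0.26 against -0.01 over the 20795 genes tested, of which 46.4% were above 0. Of the 10, 0 differed at least 2-fold, where 1.06% of all genes did. At 1.5-fold, 2 members were lower (Xcl1 and Ncr1), where 5.96% of all genes differed in either direction and 2.61% were lower. Gzmk was the 1 member whose sign changed with a setting, to 0.11 with normexp correction and to 0.53 with the mean of its probes, 1 of which was above background only on ORX/PPE.

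In sham mice (sham/PPE against sham/PBS) 8 of the 10 were higher on sham/PPE, and Xcl1 and Gzmk were lower. The median difference was 0.37 against 0.04 over 20810 genes, of which 56.7% were above 0. Again 0 members differed at least 2-fold, where 1.70% of all genes did, and at 1.5-fold there were 2, Gzma higher and Xcl1 lower, where 9.23% of all genes differed, 5.52% higher and 3.71% lower. Gzmk was at 0.25 with normexp correction and at 0.33 with the mean of its probes, instead of -0.16. Averaging probes also moved Klre1 to 0.39 (0.15 by its brightest probe) and Klrb1c to 0.31 (0.11).

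The PPE comparisons in ORX and in sham mice use different arrays. The difference between them (PPE effect in ORX minus PPE effect in sham) was -1.0 for Ncr1, -0.95 for Gzma, -0.77 for Nkg7, -0.75 for Gzmb and -0.64 for Ccl5. It was -0.44 for Prf1, -0.39 for Klre1, -0.24 for Xcl1, -0.17 for Klrb1c and 0.09 for Gzmk. These values are those of the brightest probes, with spot errors from 0.29 (Gzma) to 0.45 (Gzmk). Other probes of a gene can differ. PPE gave -0.36 in ORX and 0.75 in sham mice by Klrb1c probe A_55_P1979147, and -0.03 and 0.08 by A_52_P599514. By Klre1 probe A_52_P592222 it gave -0.43 and 0.42. With normexp correction Ncr1 was at -0.25 in ORX and 0.27 in sham mice. With 1 array per group this difference has no residual spread and was not tested.

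Under PPE, the surgery comparison (ORX/PPE against sham/PPE) had 8 of 10 genes lower on ORX/PPE, and Gzmk and Klrb1c higher. The median was -0.16 against -0.03 over 20755 genes, of which 44.1% were above 0. Gzmk was the 1 member past 2-fold, where 1.74% of all genes were past it and 0.294% were higher, and it was the 1 member at 1.5-fold too (7.21% of all genes). Gzma and Ccl5, both near 0, changed sign with quantile normalization.

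Under PBS (ORX/PBS against sham/PBS) all 10 genes were higher on ORX/PBS by their representing probes. The median was 0.56 against 0.01 over 20923 genes, of which 52.3% were above 0. Gzmk was again the 1 member past 2-fold, where 1.81% of all genes were past it and 0.636% were higher. At 1.5-fold there were 5 (Gzmk, Gzma, Ccl5, Ncr1 and Nkg7), all higher, where 9.44% of all genes differed and 4.15% were higher. The differences ran from 0.06 for Klre1 to 1.25 for Gzmk. Normexp correction left 8 of 10 above 0, with Xcl1 at -0.07 and Klre1 at -0.01, and a median of 0.28. This comparison and that of PPE in sham mice share the sham/PBS array, and it shares the ORX/PBS array with that of PPE in ORX mice, so a high or low reading of 1 array enters both.

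**Figure D3:**
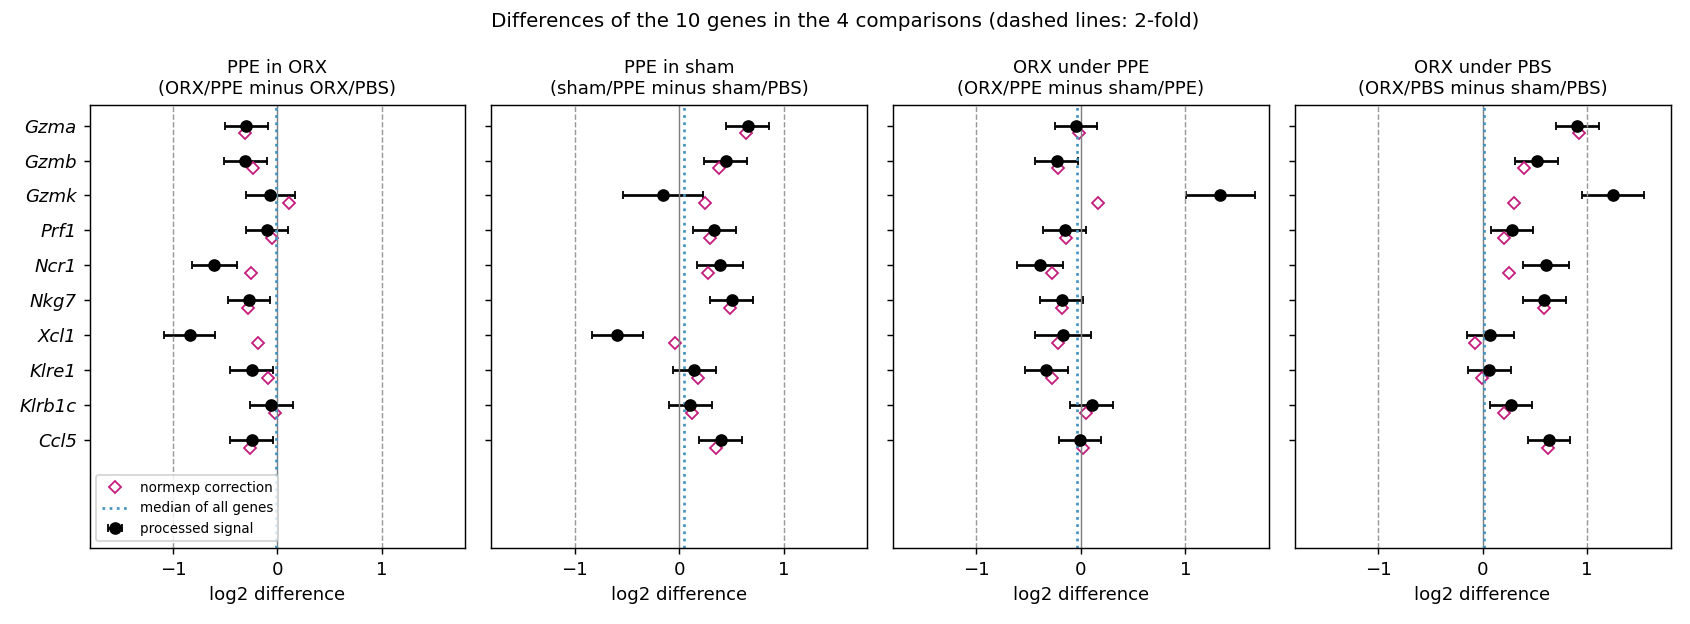
Log2 difference of each of the 10 genes in the 4 comparisons, named above each panel with the group subtracted second. Filled points are the processed signal with the scanner software's error, open diamonds the normexp values, dashed lines 2-fold and the dotted line the median of all genes. Gzmk was past 2-fold in both surgery comparisons with the processed signal and in neither with normexp (0.16 and 0.30).

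An additive limma model, which takes surgery and agent as 2 factors without an interaction, was fitted to 20641 genes. It has 1 residual degree of freedom per gene, to which empirical Bayes moderation over all genes adds 3.29. Its SE and p rest on the departure from additivity and on that moderation, and not on the spread between mice. For Gzmk the SE is smaller than the spot errors of its surgery differences (0.33 under PPE and 0.30 under PBS). None of the 10 members had a Benjamini-Hochberg adjusted p under 0.05 for either factor, and neither had any of all genes (0 of 20641), while 8.00% of genes for surgery and 5.76% for agent had an unadjusted p under 0.05. By that unadjusted measure 0 members passed for either factor with normexp correction, and 2 passed for agent with averaged probes. With the processed signal and the brightest probe per gene, 1 member passed for each factor. Gzmk had a surgery difference of 1.29 (SE 0.14, unadjusted p = 0.00052, limma adjusted p = 0.505), higher on the ORX array in 2 of 2 pairs. Xcl1 had an agent difference of -0.72 (SE 0.15, unadjusted p = 0.0073, limma adjusted p = 0.672), lower on the PPE array in 2 of 2 pairs. Gzma, with a surgery difference of 0.43 (SE 0.27, limma adjusted p = 0.802), was at 0.91 under PBS and at -0.05 under PPE. The value under PPE lies within the spot error.

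The genes whose profile over the 4 arrays was most like the median profile of the 10 were Cxcr3 (r = 0.999), Pilrb2 (0.998), Snn (0.997), Pld4 (0.995) and Dnah8 (0.995). Only 4 points enter each r, and 119 of the 4308 genes with as wide a range (2.76%) reached 0.95, so this describes the arrays. Cxcr3, the receptor of Cxcl9 on activated T and NK cells, had processed signals of 278 on ORX/PPE, 404 on ORX/PBS, 304 on sham/PPE and 223 on sham/PBS, a difference of 0.65 for ORX/PBS against sham/PBS.

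Genes of the same pathways were read from 10 lists with 127 names, 123 of them on the array. Under PBS, 88 of 111 tested were above 0 in ORX/PBS against sham/PBS, where 52.3% of all genes were, with a median of 0.28. At 2-fold 2 were higher and 1 lower, beside 1.81% of all genes. For PPE in sham mice 86 of 113 were above 0, where 56.7% of all genes were, with a median of 0.24, and 2 were higher at 2-fold, beside 1.70% of all genes. For PPE in ORX mice 46 of 111 were above 0 (median -0.07, all genes 46.4%), for ORX under PPE 50 of 113 (median -0.03, all genes 44.1%), and 0 were past 2-fold in either (all genes 1.06% and 1.74%).

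Of 7 other granzymes, Gzmm was above background on all arrays, with differences of 0.53 for ORX/PBS against sham/PBS and -0.13 for ORX/PPE against ORX/PBS. Gzmd, Gzmf, Gzmg and Gzmn were not above background on any. All 10 genes of granule loading and release were above 0 for PPE in sham mice (median 0.28), where 56.7% of all genes were. For ORX under PBS 9 of 10 were above 0 (median 0.30), where 52.3% of all genes were. Srgn, the proteoglycan serglycin that holds granzymes in the granule, was at 0.55 in both. Rab27a, a GTPase of granule docking, was at -0.53 for ORX/PPE against ORX/PBS and -0.54 for ORX/PPE against sham/PPE. The 3 granzyme inhibitors had a median of 0.27 for sham/PPE against sham/PBS and of -0.34 for ORX/PPE against sham/PPE, where Serpinb6b was at -0.45.

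Among other NK receptors, 22 of 23 tested were above 0 for ORX/PBS against sham/PBS, where 52.3% of all genes were. The median was 0.38 (0.25 with normexp). Slamf6, a receptor of T and NK cells, was at 1.03 (0.67 with normexp). It was the 1 gene of the list past 2-fold, where 1.81% of all genes were. For PPE in sham mice the median was 0.22 and Klri2 was at 0.98 (0.38 with normexp). Klrc1, Cd160 and Tigit were not above background on any array. In the adapters and kinases below these receptors, Tyrobp (DAP12, which couples activating receptors to kinases) was at 1.02 for sham/PPE against sham/PBS and 0.84 for ORX/PBS against sham/PBS. Tyrobp is also expressed by macrophages and neutrophils.

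The transcription factors of NK cells went both ways. For ORX under PBS 7 of 12 were above 0 (median 0.03), and for PPE in sham mice 6 of 12 (median -0.07). Of all genes, 52.3% and 56.7% were above 0 in these comparisons. Nfil3, required for NK cell development, was 2-fold lower or more on ORX/PBS than on sham/PBS (-1.35, and -1.22 with normexp), and at 0.47 for ORX/PPE against ORX/PBS. Other effector cytokines and death ligands had a median of 0.36 for ORX under PBS, where Ifng was at 0.65 (0.31 with normexp), and Ccl3 was at -0.78 for ORX/PPE against sham/PPE. Of the chemokine genes, Cxcl9, an interferon-induced ligand of Cxcr3, was at 1.15 for sham/PPE against sham/PBS (0.63 with normexp) and 0.53 for ORX/PPE against ORX/PBS. Of the ligands on target cells, Clec2d, the ligand of an inhibitory receptor encoded in the Klrb1 family, was at 1.06 for ORX/PBS against sham/PBS, 0.81 for sham/PPE against sham/PBS and -0.83 for ORX/PPE against ORX/PBS. For cytokines and receptors that activate NK cells the medians were 0.15 for ORX/PBS and 0.13 for sham/PPE, each against sham/PBS. Il12b, a subunit of the cytokine IL-12, was at -0.96 for sham/PPE against sham/PBS, and Il12rb2, a chain of its receptor, at 0.80 for ORX/PPE against ORX/PBS and -0.77 for ORX/PBS against sham/PBS. Both were dim, and normexp correction gave -0.0024 for Il12b and 0.34 and -0.32 for Il12rb2.

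**Figure D4:**
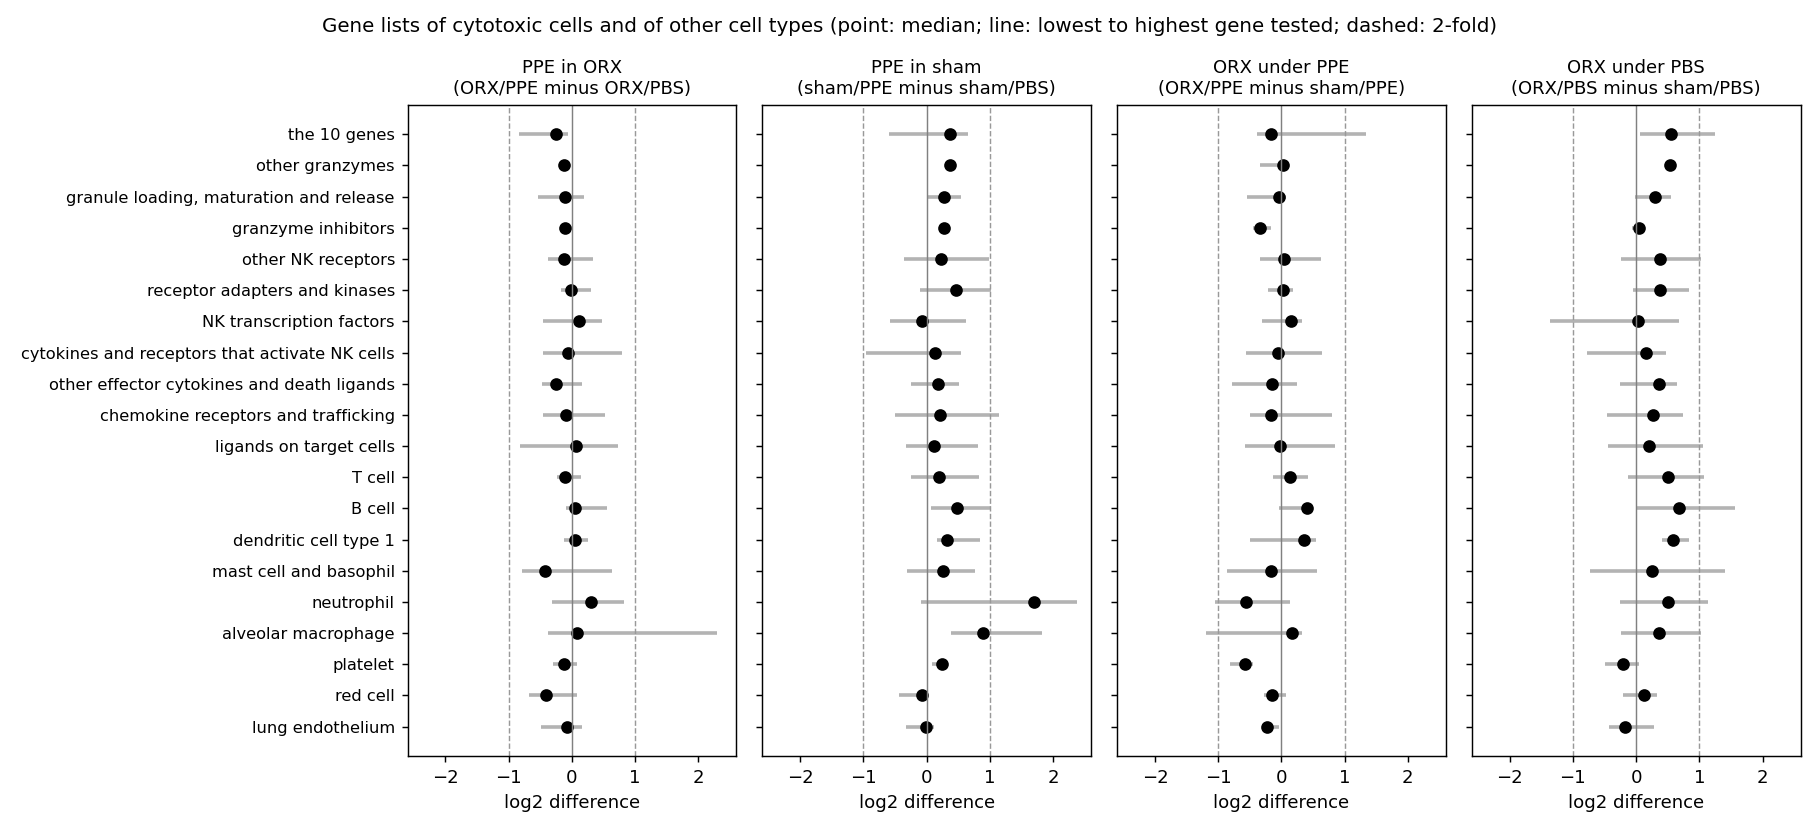
Log2 differences of the 10 genes, the 10 pathway lists and the lists of other cell types in the 4 comparisons, as the median (point) and the lowest to highest gene tested (line). The dashed lines mark 2-fold. The 10 genes had medians of -0.26, 0.37, -0.16 and 0.56 from the left panel to the right, and T cell genes -0.11, 0.19, 0.14 and 0.51.

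The summed marker signal of several other leukocytes was also above its sham/PBS level on the other 3 arrays. All 11 T cell markers were above background on every array, and their summed scaled signal was 1.25 times the sham/PBS sum on ORX/PPE, 1.37 on ORX/PBS and 1.18 on sham/PPE, where the 10 granzyme and NK genes gave 1.39, 1.68 and 1.44. Most of the signal in the sums of the 10 genes is Gzma and Ccl5, and on ORX/PPE Ncr1 was level with sham/PBS while Klre1 and Xcl1 were below it. For ORX/PBS against sham/PBS the T cell median was 0.51, with 9 of 11 above 0, where 52.3% of all genes were. Cd8b1, a chain of the CD8 coreceptor, was at 1.08. The 7 B cell markers summed to 2.13, 1.98 and 1.55 times sham/PBS on ORX/PPE, ORX/PBS and sham/PPE, with a median of 0.68 for ORX under PBS. On the same arrays, neutrophil markers summed to 1.5, 1.25 and 2.13 times, and alveolar macrophage markers to 2.23, 1.41 and 2.04 times. Markers of type 1 dendritic cells summed to 1.29, 1.36 and 1.25 times, and those of mast cells and basophils to 1.18, 1.31 and 1.28 times. Those of ILC2 summed to 1.35, 1.51 and 1.21 times, but the single genes went both ways. Of 5 ILC2 genes tested, 3 were above 0 for ORX under PBS (median 0.02). For PPE in sham mice 2 of 5 were (median -0.06). Of all genes, 52.3% and 56.7% were above 0 in these comparisons. Markers of gamma delta and innate-like T cells gave 0.898, 0.965 and 1.01 times, and those of red cells 0.898, 0.922 and 0.998 times. The part of these cells in the results was not tested.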

How the data were processed

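Lung RNA of 4 groups was measured, with 1 array of RNA pooled from 5 mice per group. The authors deposited the scanner output of each array as spot intensity, background-subtracted by Agilent Feature Extraction (version 10.7.1.1 per the file headers, 9.5.1.1 per the submitters' processing notes), and a value table of the 4 arrays, in linear intensity, whose log2 values had r of at least 0.9998 with those of the scanner's processed signal; its median was 71.5 on each array, and how it was normalized is not given in the sources used here. Control spots were left out, spots of 1 probe averaged, and log2 of the processed signal scaled by subtracting the array's 75th percentile. Probes were named through the RefSeq table by accession, then by symbol.

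A gene was tested in a comparison when its probe was well above background on at least 1 of the 2 arrays. Where only 1 array was, the lowest signal above background replaced a dimmer value to give a bound. A gene whose bound then fell at 0 or on the other side of it gave no fold and was not counted as tested. A difference was called at 2-fold. The limma fit (limma 3.58.1, R 4.3.3) used surgery and agent as factors, with empirical Bayes moderation and Benjamini-Hochberg adjustment. The 2-fold calls and the bounds were checked on simulated data, and the calls of the fit were not. Other steps used Python 3.11.15. The error of spots contains a multiplicative part of 0.1 of the signal, and with 1 array per group no precision over mice can be given. Among 285 or 286 replicate-spotted probes at a signal of 500 or more, the difference of 2 spots had an SD of 0.044 to 0.050, and 0.11 to 0.13 among 11 or 12 probes at 50 to 500. Below 50, where Gzmk and most Xcl1 values lie, it was 0.28 to 0.46 among 3 probes.

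Alternatives were normexp correction, quantile normalization, median centring, other filters, averaged probes per gene, the value table and a 1.5-fold threshold. All 10 members are named. Of each pathway list and comparison, genes past 2-fold could be named (up to 3 each way), or else the gene of largest difference. Of marker lists the largest 2 could be named, and 5 genes of the most similar profile. The members and lists were chosen with earlier results of these data known. Probe names follow the array's design and the RefSeq table.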

Additional observations from a re-analysis of the deposited data

How the results depend on the processing

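No paired analysis was possible because each group has 1 array. Over the alternatives, 269 differences of members moved by less than the spot error and 11 by more, and none of those past 2-fold changed sign. At 1.5-fold the counts of members past the threshold were 2 for PPE in ORX mice, 5 for ORX under PBS and 2 for PPE in sham mice, in place of 0, 1 and 0. With normexp correction the count was 0 for ORX under PPE and 0 for ORX under PBS, in place of 1 each (Gzmk), and the members' median was 0.28 for sham/PPE against sham/PBS (0.37 as reported) and 0.28 for ORX/PBS against sham/PBS (0.56 as reported). Normexp adds an offset of 50, which can narrow differences of dim probes. Narrowing does not describe every change: Gzmk went from -0.16 to 0.25 for PPE in sham mice and from -0.07 to 0.11 in ORX mice. In the limma fit, 0 members had an adjusted p under 0.05 under any setting run, although normexp called 6 genes for surgery and 5 for agent. Signs near 0 depended on the setting: Gzmk in both PPE comparisons (normexp and the mean of probes), Klrb1c for ORX under PPE (mean of probes), Ccl5 (normexp, quantile, median centring, value table) and Gzma (quantile, value table) for ORX under PPE, and Xcl1 and Klre1 for ORX under PBS (normexp). Signal over background limits Gzmk and Xcl1, and leaving out an array was not possible because it removes a group.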
